A study of Mus musculus with 10 samples.

Results

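The genes of fibroblast growth factor (FGF) signalling described here were followed across 5 mouse cultures, from embryonic stem (ES) cells through spheres to neural stem cells. They are the ligand genes Fgf4, Fgf10, Fgf15 and Fgf17, the intracellular homologue Fgf13, and the 4 receptor genes Fgfr1, Fgfr2, Fgfr3 and Fgfr4. They were taken by name as 9 of the 19938 genes measured, each through its highest-mean probe set, and each had 1 probe set. The 4 cultures of the course were ESC, pNSC_L, pNSC_LF and dNSC. ESC were R1 cells, a line of 129/Sv origin, kept on mitomycin C-inactivated embryonic fibroblasts in 15% serum with 1000 U/ml Lif. pNSC_L were primitive neural stem cells, primary spheres formed by R1 ES cells within a serum-free N2 medium that held 1000 U/ml Lif. pNSC_LF were those spheres dissociated and re-plated with 1000 U/ml Lif, 10 ng/ml FGF and 2 μg/ml heparin. dNSC were definitive neural stem cells passaged from primitive ones in N2 and B27 with 20 ng/ml FGF, 20 ng/ml EGF and 2 μg/ml heparin. CNS_NSC came from the frontal lobes of wild-type ICR embryos at E11.5 and grew in N2 with FGF, EGF and heparin at those doses. Thus FGF protein was supplied in pNSC_LF, dNSC and CNS_NSC, and the labels do not say which FGF it was. Each group had 2 biological replicates, and by the labels all 4 R1 groups trace to 1 cell line.

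FGF ligands outside the cell bind receptor tyrosine kinases together with heparan sulfate, and the receptors signal through adaptors to Ras, the MAP kinases and the ERK pair. In ES cells, Fgf4 made by the cells themselves drives ERK and readies them to leave self-renewal. In the embryonic brain, FGFs pattern the forebrain and the midbrain-hindbrain border, and neural stem cells in culture divide in response to added FGF. Fgf13 belongs to the FGF homologous factors, which stay inside the cell and bind voltage-gated sodium channels.

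Values below are log2 intensities of whole-gene probe sets, read on 1 array per replicate, so a step of 1 is a doubling of signal. Array medians lay between 7.66 and 7.76, lower quartiles between 6.39 and 6.49, and the median gene averaged 8.10. Values near or under that median may hold mostly background, so small differences there are uncertain in size. Replicates correlated across genes at 0.9885 to 0.9972, and 277 genes in CNS_NSC and 167 in pNSC_L differed 2-fold between replicates, against 1 to 30 in the other groups. Differences are group means, first group minus second, ± SE from one limma fit with n = 2 arrays a group. A gene is said to rise or fall where its p, adjusted over all 19938 genes, was below 0.05. Comparisons that use the same group share its arrays. Arrays of bulk RNA cannot tell fewer cells of a type from less RNA per cell.

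The labels were set against marker genes. The mean level of 6 ES cell markers, among them Pou5f1 and Nanog, was 12.49 to 12.64 on the 6 ESC, pNSC_L and pNSC_LF arrays, 10.17 and 10.08 in dNSC, and 6.78 and 6.94 in CNS_NSC. The mean level of 7 neural stem cell markers was 8.18 to 8.38 in ESC, pNSC_L and pNSC_LF, 10.71 and 10.69 in dNSC, and 11.19 and 10.98 in CNS_NSC. In pNSC_L against ESC, 2 of the 7 neural markers rose (Slc1a3 and Fabp7) and Pax6 fell by 1.4 ± 0.12. These calls were 42.9% of the list, against 13.4% of all genes. Nes averaged 7.10 in pNSC_L and 7.48 in ESC. dNSC kept part of the ES cell marker signal. Hprt, a purine salvage gene, was at 6.99 and 6.76 in ESC, whereas the lowest of the 8 other arrays had 10.45, although the labels give R1 as the source of the first 4 groups. Whether this touches the FGF genes, or whether the ESC arrays hold the same line as the spheres, was not tested. The shared line rests on the labels, and the Hprt difference bears on each comparison with ESC.

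Promoter sequences from RefSeq (GRCm38.p6) were held for 6 of the 9 genes, with 10 start sites in all. The 4 genes with a single listed start are shown, since they took 4 different courses over the cultures: Fgf4 was high until dNSC, Fgf10 peaked in pNSC_L, Fgfr2 peaked in dNSC and Fgfr4 varied least. Each line gives the 250 bases before the start, 5′ to 3′ on the gene's strand, with the GC box (GGGCGG or, on the other strand, CCGCCC) in capitals.
Fgf4 promoter, chr7:144861136-144861385, plus strand: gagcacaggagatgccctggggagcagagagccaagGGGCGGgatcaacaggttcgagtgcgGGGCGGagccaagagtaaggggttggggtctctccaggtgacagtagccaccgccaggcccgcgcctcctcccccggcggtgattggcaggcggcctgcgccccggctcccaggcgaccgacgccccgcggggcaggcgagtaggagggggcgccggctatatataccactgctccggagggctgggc
Fgf10 promoter, chr13:118714449-118714698, plus strand: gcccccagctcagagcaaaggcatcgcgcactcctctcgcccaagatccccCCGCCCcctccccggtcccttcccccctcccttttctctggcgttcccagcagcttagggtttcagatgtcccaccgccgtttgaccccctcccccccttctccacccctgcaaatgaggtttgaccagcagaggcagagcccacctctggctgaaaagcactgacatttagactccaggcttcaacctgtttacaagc
Fgfr2 promoter, chr7:130266809-130267058, minus strand: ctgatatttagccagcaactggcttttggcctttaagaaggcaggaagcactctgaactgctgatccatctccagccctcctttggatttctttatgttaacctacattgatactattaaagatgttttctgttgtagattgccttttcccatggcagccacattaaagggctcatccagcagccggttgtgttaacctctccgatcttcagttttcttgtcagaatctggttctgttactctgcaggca
Fgfr4 promoter, chr13:55152568-55152817, plus strand: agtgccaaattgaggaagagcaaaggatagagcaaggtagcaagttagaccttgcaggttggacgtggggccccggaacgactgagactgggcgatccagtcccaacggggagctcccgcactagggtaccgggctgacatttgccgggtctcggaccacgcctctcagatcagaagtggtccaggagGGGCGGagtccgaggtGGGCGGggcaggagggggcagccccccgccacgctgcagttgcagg

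The Fgf4 stretch held 2 GC boxes, with 71.2% G and C and 21 CpG. That of Fgfr4 held 2 GC boxes at 64.0% G and C, and that of Fgf10 held 1 at 61.2%. The Fgfr2 stretch held 0, at 44.0% G and C and 2 CpG. For scale, 32.7% of 32851 mouse promoter stretches of the same length held a GC box on either strand, and the median stretch had 52.4% G and C and 6 CpG. The octamer ATGCAAAT, searched on both strands and overlapping no GC box, was in none of the 10 stretches, against 1.6% of all. These matches describe the letters of these windows.

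Fgf4, the ligand that ES cells secrete, was high in the ES cell and Lif cultures and low in both neural stem cell cultures. It read 11.33 and 11.12 in ESC, 11.72 and 11.84 in pNSC_L, 11.87 and 11.76 in pNSC_LF, 8.76 and 8.83 in dNSC, and 7.60 and 7.62 in CNS_NSC. The 3 groups with Lif stood more than 2 units above the 2 groups for which the labels list no Lif, with no overlap. Fgf4 fell by 3.02 ± 0.11 in dNSC against pNSC_LF, an 8.13-fold difference (adjusted p = 4e-08). It was still 2.26-fold higher in dNSC than in CNS_NSC (1.18 ± 0.11, adjusted p = 1.8e-05), the same pair in which the ES cell markers differed by a median of 3.80. Between pNSC_L and ESC it rose by 0.55 ± 0.11 (adjusted p = 0.009), which missed the threshold once ESC replicate 2 was left out (adjusted p = 0.086) or once only these 2 groups were fitted (adjusted p = 0.056). Between pNSC_LF and pNSC_L, where FGF was added, the difference was 0.04 ± 0.11, with a 95% interval from -0.20 to 0.28.

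**Figure D1:**
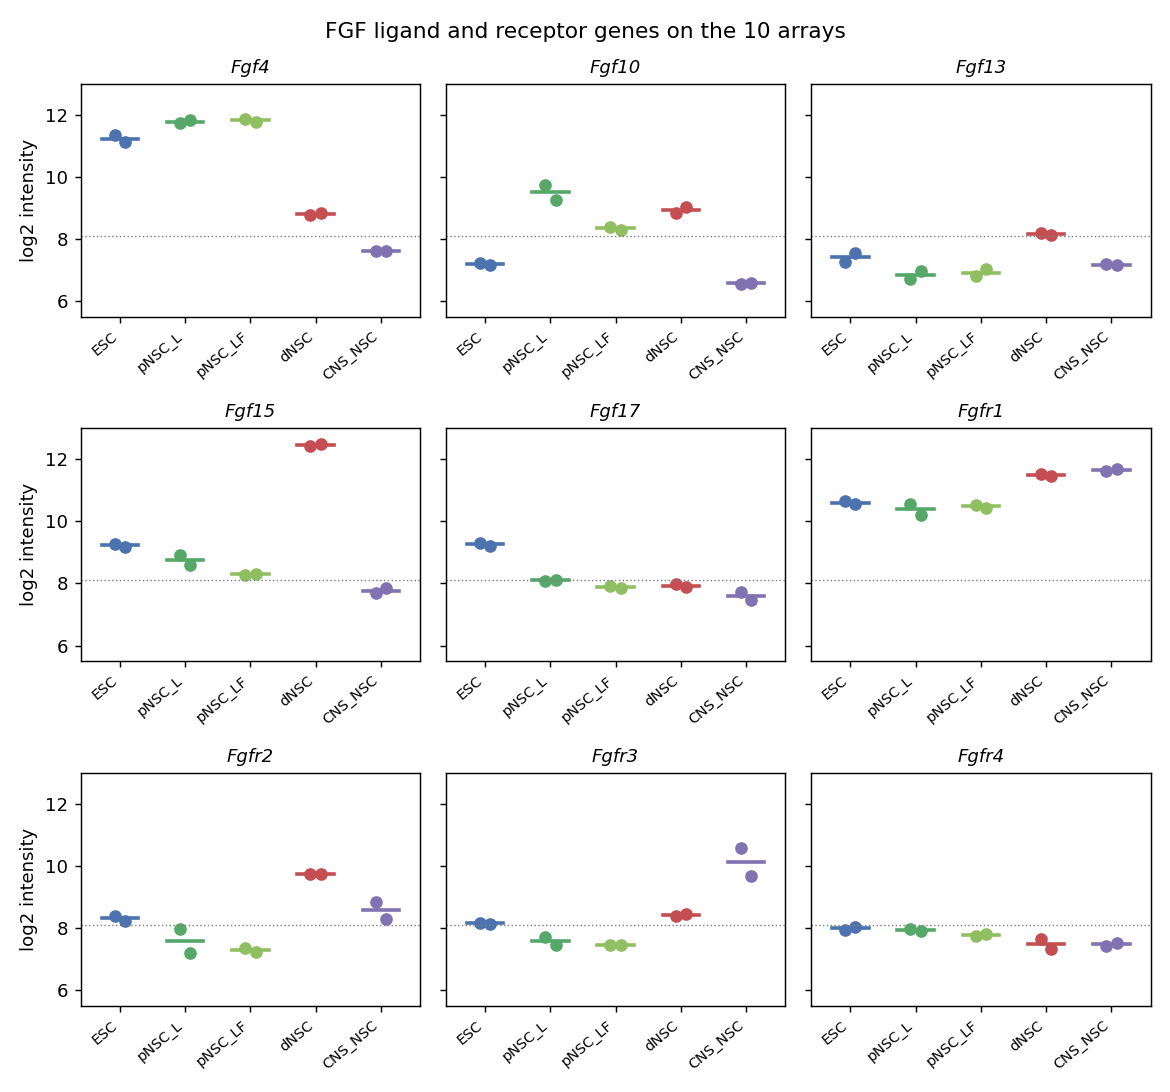
Log2 intensity (vertical axis) of the 9 genes in the 5 cultures (horizontal axis); points are single arrays, bars are means of 2 arrays, and the dotted line is the median gene at 8.10. Fgf15 stands at 12.45 in dNSC and at or below 9.22 in the other groups, Fgf4 falls after pNSC_LF, and Fgfr3 is highest in CNS_NSC with its 2 replicates 0.90 apart.

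Fgf15, which marks progenitors of the embryonic midbrain, hindbrain and diencephalon and is the mouse counterpart of human FGF19, showed the largest change of the 9 genes. It read 9.27 and 9.18 in ESC, 8.90 and 8.60 in pNSC_L, 8.27 and 8.31 in pNSC_LF, 12.43 and 12.48 in dNSC, and 7.69 and 7.85 in CNS_NSC. Both dNSC arrays lay more than 3 units above the other 8, and CNS_NSC, the other neural stem cell culture, was the lowest. The gene rose 17.9-fold in dNSC against pNSC_LF (4.16 ± 0.12, adjusted p = 2.3e-08), rank 24 of all 19938 genes by size of difference. It was 25.6-fold higher in dNSC than in CNS_NSC, where it ranked 28. Earlier in the course it fell by 0.47 ± 0.12 in pNSC_L against ESC (adjusted p = 0.029) and by 0.93 ± 0.12 in pNSC_LF against ESC (adjusted p = 0.00084). The first of these calls was lost under 6 of 14 alternatives, without either ESC replicate (adjusted p = 0.17 and 0.099) or pNSC_L replicate 2 (adjusted p = 0.091) among them. Between pNSC_LF and pNSC_L the difference was -0.46 ± 0.12 (adjusted p = 0.099), or -0.61 (adjusted p = 0.025) without pNSC_L replicate 2.

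Fgf10, a ligand of mesenchyme in lung and limb buds that acts through Fgfr2 in epithelia, rose early. It read 7.22 and 7.15 in ESC, 9.75 and 9.24 in pNSC_L, 8.38 and 8.30 in pNSC_LF, 8.82 and 9.03 in dNSC, and 6.56 and 6.58 in CNS_NSC. The group ranges did not overlap, and it was the only one of the 9 genes called in all 10 pairs of groups. In pNSC_L against ESC it rose 4.95-fold (2.31 ± 0.16, adjusted p = 4.1e-05), rank 17 of all genes in that comparison. It then fell by 1.15 ± 0.16 in pNSC_LF against pNSC_L (adjusted p = 0.0061) and rose by 0.58 ± 0.16 in dNSC against pNSC_LF (adjusted p = 0.013). In dNSC it was 5.10-fold higher than in CNS_NSC (2.35 ± 0.16, adjusted p = 1.6e-06). The fall missed the threshold in 4 alternatives, at adjusted p = 0.065 and 0.075 when pNSC_LF replicate 1 or 2 was dropped, 0.094 for an unmoderated test and 0.061 for the 2 groups fitted alone. The later rise missed the threshold in 3 alternatives, at adjusted p = 0.077 when pNSC_LF replicate 2 was dropped, 0.11 when dNSC replicate 2 was dropped and 0.061 for an unmoderated test.

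Markers of other cell types were read beside Fgf10. Of 8 feeder fibroblast markers, 3 rose and 1 fell in pNSC_L against ESC, 50% of the list against 13.4% of all genes. Their mean level was 7.81 and 8.03 in pNSC_L and 7.30 and 7.44 in ESC. Dcn, the matrix proteoglycan decorin, read 8.79 and 10.41 in pNSC_L, against 6.06 and 6.48 in ESC. The matrix genes Postn and Lum rose by 0.95 ± 0.20 and 0.51 ± 0.14, and Thy1, a surface protein of fibroblasts and neurons, fell by 0.76 ± 0.17. The collagen genes Col1a1, Col1a2 and Col3a1 and the receptor gene Pdgfrb were not called, at 0.20 ± 0.12, 0.21 ± 0.10, 0.30 ± 0.12 and -0.35 ± 0.11. Between the 2 pNSC_L arrays the feeder markers split. Dcn, Postn and Lum were higher in replicate 2, which had the lower Fgf10. Col1a1, Col1a2, Col3a1 and Thy1 were higher in replicate 1, and Pdgfrb read 8.04 in both. Of 7 primitive endoderm markers, 4 rose and none fell in the same comparison, 57.1% of the list against 13.4% of all genes. Their mean level was 8.01 and 7.92 in pNSC_L and 7.42 and 7.58 in ESC, and the endoderm factor Gata4 read 9.20 and 8.54 in pNSC_L. In pNSC_LF against pNSC_L, where Fgf10 fell, 1 of the 8 feeder markers was called, Dcn at -2.33 ± 0.40, and 0 of the 7 endoderm markers. Only 1.78% of all genes were called there, so few calls could be looked for in lists of this size. In dNSC against pNSC_LF, 6 feeder markers rose and Thy1 fell, and 4 endoderm markers rose and none fell, Gata4 (0.04 ± 0.18) not among them. These calls were 87.5% of the feeder list and 57.1% of the endoderm list, against 38.6% of all genes. Over the 10 arrays, which share 5 groups, the correlation of Fgf10 with the 8 feeder markers ran from -0.40 for Thy1 to 0.86 for Dcn, and with the 7 endoderm markers from 0.19 for Afp to 0.91 for Gata4. The part of such cells in the Fgf10 result was not tested.

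**Figure D2:**
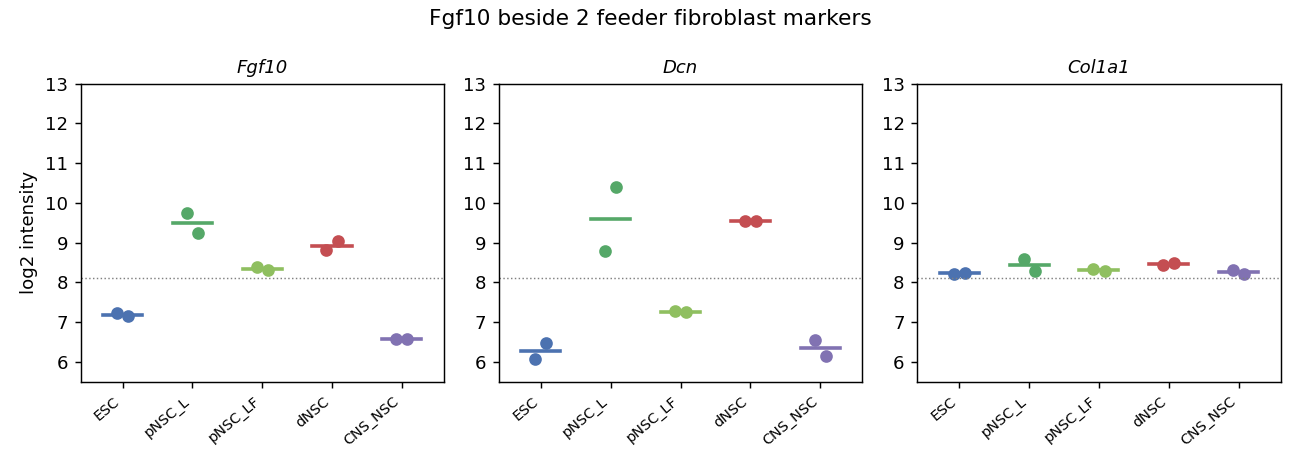
Log2 intensity (vertical axis) of Fgf10 and of the fibroblast genes Dcn and Col1a1 in the 5 cultures (horizontal axis); points are single arrays, bars are means of 2 arrays, and the dotted line is the median gene at 8.10. Fgf10 and Dcn are both high in pNSC_L and dNSC and low in ESC and CNS_NSC, while the group means of Col1a1 lie between 8.23 and 8.46; these are 2 of the 8 feeder markers, one called and one not in pNSC_L against ESC.

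Fgf17, a relative of Fgf8 that acts in midbrain and frontal cortex patterning, was highest in ES cells. It read 9.29 and 9.22 in ESC, 8.07 and 8.12 in pNSC_L, 7.92 and 7.86 in pNSC_LF, 7.99 and 7.87 in dNSC, and 7.73 and 7.45 in CNS_NSC. Both ESC arrays lay above the other 8, which spread over less than 1 unit. Fgf17 fell by 1.16 ± 0.12 in pNSC_L against ESC (adjusted p = 0.00025) and was 2.51-fold lower in dNSC than in ESC (-1.33 ± 0.12, adjusted p = 1e-05). Later steps gave no call: pNSC_LF minus pNSC_L was -0.20 ± 0.12 (adjusted p = 0.51), and dNSC minus pNSC_LF was 0.04 ± 0.12 with a 95% interval from -0.22 to 0.30. Against CNS_NSC it was higher in dNSC by 0.34 ± 0.12 (adjusted p = 0.045), a call lost under 6 of 14 alternatives and down to 0.20 without CNS_NSC replicate 2 (adjusted p = 0.25). Dropping dNSC replicate 1 gave adjusted p = 0.23, and dropping dNSC replicate 2 gave 0.094.

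Fgf13, the homologous factor that partners sodium channels and microtubules in neurons, was highest in dNSC. It read 7.27 and 7.54 in ESC, 6.72 and 6.98 in pNSC_L, 6.79 and 7.04 in pNSC_LF, 8.19 and 8.11 in dNSC, and 7.20 and 7.15 in CNS_NSC. It rose 2.35-fold in dNSC against pNSC_LF (1.23 ± 0.14, adjusted p = 5.4e-05) and was 1.96-fold higher in dNSC than in CNS_NSC (0.97 ± 0.14, adjusted p = 0.00033). It fell in pNSC_L against ESC by 0.55 ± 0.14 (adjusted p = 0.024), a call lost under 5 of 13 alternatives, with adjusted p = 0.18 when ESC replicate 2 was dropped and 0.11 when pNSC_L replicate 1 was dropped. The mean level of 6 neuron markers was 9.34 and 9.30 in dNSC, against 8.38 and 8.37 in ESC. It was 8.13 and 8.16 in pNSC_LF and 8.06 and 7.40 in CNS_NSC. In dNSC against pNSC_LF all 6 were called, against 38.6% of all genes, 5 higher and Stmn2 lower. Stmn2 averaged 12.36 in ESC, 12.54 in pNSC_LF, 11.41 in dNSC and 6.49 in CNS_NSC, and it weighs on these means. In dNSC against CNS_NSC, 4 were higher and none lower, 66.7% against 34.0% of all genes. The part of neurons in the Fgf13 values was not tested. Fgf13 lies on the X chromosome. Xist, the RNA that coats a silenced X, read 12.75 and 12.03 in CNS_NSC and at most 6.97 on the 8 arrays labelled R1.

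Among the receptors, Fgfr1, the main FGF receptor of ES cells and forebrain progenitors, was present in every culture and higher in both neural stem cell groups. It read 10.65 and 10.56 in ESC, 10.57 and 10.21 in pNSC_L, 10.53 and 10.43 in pNSC_LF, 11.51 and 11.45 in dNSC, and 11.61 and 11.68 in CNS_NSC. The 6 ESC, pNSC_L and pNSC_LF arrays lay below the 4 others, and no array of one set reached the other. Fgfr1 rose by 1.00 ± 0.13 in dNSC against pNSC_LF (adjusted p = 0.00013) and was 2.05-fold higher in CNS_NSC than in ESC (1.04 ± 0.13, adjusted p = 7.1e-05). Between dNSC and CNS_NSC the difference was -0.17 ± 0.13, with a 95% interval from -0.45 to 0.11. The pNSC_L minus ESC difference was -0.22 ± 0.13 (adjusted p = 0.32), and in pNSC_LF against pNSC_L it was 0.09 ± 0.13 (adjusted p = 0.86).

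Fgfr2, a receptor of epithelia and of the ventricular zone, was highest in dNSC. It read 8.39 and 8.23 in ESC, 7.97 and 7.18 in pNSC_L, 7.36 and 7.22 in pNSC_LF, 9.75 and 9.74 in dNSC, and 8.83 and 8.30 in CNS_NSC. Both dNSC arrays stood above the other 8, while CNS_NSC overlapped ESC. It rose 5.49-fold in dNSC against pNSC_LF (2.46 ± 0.24, adjusted p = 2.1e-05) and was 2.27-fold higher in dNSC than in CNS_NSC (1.18 ± 0.24, adjusted p = 0.0032). It was lower in pNSC_LF than in ESC, at -1.02 ± 0.24 (adjusted p = 0.018), but in none of the 4 fits that left out a replicate of these groups (adjusted p = 0.07 to 0.11). The pNSC_L minus ESC difference was -0.73 ± 0.24 (adjusted p = 0.073), and -1.13 (adjusted p = 0.0083) without pNSC_L replicate 1. The probe set covers the gene as a whole and does not separate the epithelial and mesenchymal splice forms that differ in ligand choice.

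Fgfr3, a receptor of the ventricular zone and of astroglia, was highest in the embryo-derived neural stem cells. It read 8.17 and 8.14 in ESC, 7.7 and 7.46 in pNSC_L, 7.45 and 7.45 in pNSC_LF, 8.37 and 8.46 in dNSC, and 10.56 and 9.66 in CNS_NSC. Even the lower CNS_NSC array lay more than 1 unit above the other 8. It was 3.23-fold lower in dNSC than in CNS_NSC (-1.69 ± 0.23, adjusted p = 0.00026) and 3.88-fold higher in CNS_NSC than in ESC (1.96 ± 0.23, adjusted p = 5.5e-05). It rose in dNSC against pNSC_LF by 0.96 ± 0.23 (adjusted p = 0.0072), a call lost with an unmoderated test (adjusted p = 0.064). In dNSC against ESC the difference was 0.26 ± 0.23 (adjusted p = 0.42, or 0.038 with only the 2 groups fitted). In CNS_NSC, 5 oligodendrocyte lineage markers averaged 11.11 and 10.33 on the 2 arrays, against 7.91 and 7.81 in dNSC. There, 5 astrocyte markers averaged 8.53 and 8.32, against 7.18 and 7.03 in dNSC. Single markers did not all follow these means. From CNS_NSC replicate 1 to 2, Pdgfra went from 10.89 to 8.52, with Cspg4, Sox10, Aldoc, Aqp4 and S100b also lower in replicate 2. Olig1 was nearly level (12.98 and 12.93), while Olig2, Gfap and Aldh1l1 were higher in replicate 2. Gfap, the astrocyte filament, averaged 7.26 in CNS_NSC and 6.83 in dNSC, and the part of glial cells in the Fgfr3 values was not tested.

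Fgfr4, known in the blastocyst endoderm lineage and as the Fgf15 receptor of liver, varied least. It read 7.94 and 8.04 in ESC, 7.97 and 7.89 in pNSC_L, 7.73 and 7.81 in pNSC_LF, 7.65 and 7.33 in dNSC, and 7.42 and 7.52 in CNS_NSC, all under the median gene. Its group means spanned 0.52, wider than in 44.9% of genes, against 4.68 for Fgf15 and 4.20 for Fgf4. It was lower in dNSC than in ESC by -0.50 ± 0.12 (adjusted p = 0.0077), which missed the threshold at adjusted p = 0.059 when ESC replicate 2 was dropped and at 0.088 when dNSC replicate 2 was dropped. It was also lower in CNS_NSC than in ESC, by -0.52 ± 0.12 (adjusted p = 0.0056). The dNSC minus pNSC_LF difference was -0.29 ± 0.12 (adjusted p = 0.094), which passed after quantile normalization (adjusted p = 0.022), with array weights (adjusted p = 0.037) and without dNSC replicate 1 (adjusted p = 0.035).

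With the groups ordered by each gene's own means, 15 of the 36 neighbouring pairs of groups differed over the 9 genes. The share of such pairs over all genes was not computed. Single comparisons called 1.78% to 43.8% of all genes. For Fgf10 all 4 neighbours differed, in the order pNSC_L, dNSC, pNSC_LF, ESC, CNS_NSC, although 3 of these 4 calls were each lost under some alternative and the steps were as small as 0.57. For Fgf4 only pNSC_LF and pNSC_L did not differ, and for Fgf15 only pNSC_L and pNSC_LF. Fgf17 had 1 step, below ESC. Fgf13 and Fgfr2 had 1 step, below dNSC. Fgfr3 had 1, below CNS_NSC, and Fgfr1 had 1, between dNSC and ESC. No neighbours differed for Fgfr4.

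Taken by comparison, pNSC_L against ESC sets Lif spheres in serum-free medium against ES cells kept on embryonic fibroblasts in serum. Hprt averaged 11.24 in pNSC_L and 6.87 in ESC. The part of line or sample, serum and fibroblasts in these differences was not tested apart from sphere formation. In this comparison, 5 of the 9 genes were called, Fgf4 and Fgf10 higher and Fgf13, Fgf15 and Fgf17 lower, against 13.4% of all genes. Their median difference was -0.47, against 0.02 over all genes. The count was 3 with an unmoderated test or with array weights, 2 with only the 2 groups, and 2 without ESC replicate 2. Among the receptors Fgfr2 differed most, by -0.73, and passed when pNSC_L replicate 1 was dropped (adjusted p = 0.0083).

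**Figure D3:**
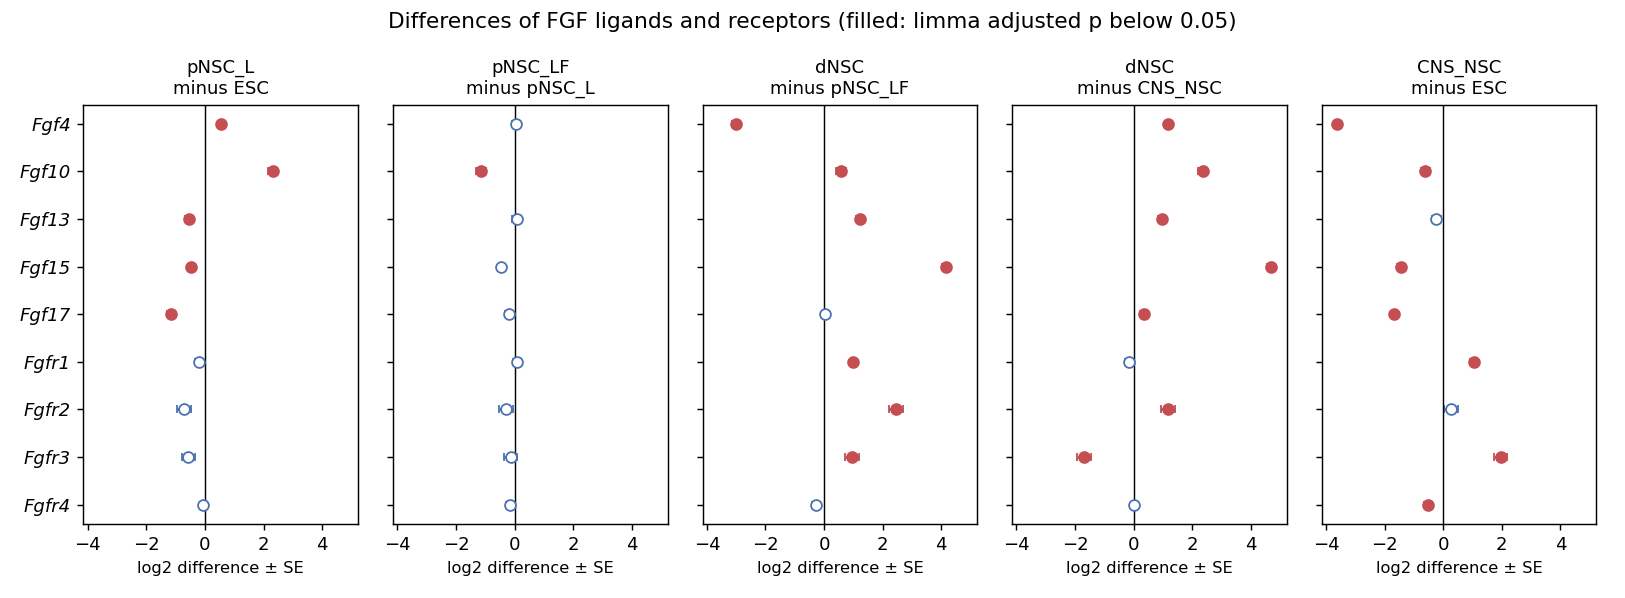
Log2 difference ± SE (horizontal axis) of each of the 9 genes (vertical axis) in 5 comparisons, n = 2 arrays a group; filled red points had limma adjusted p below 0.05 and open blue points did not. The second panel holds a single call, Fgf10, while dNSC minus pNSC_LF runs from -3.02 for Fgf4 to 4.16 for Fgf15.

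In pNSC_LF against pNSC_L, the passage in which 10 ng/ml FGF and heparin were added, 1 of the 9 genes was called, Fgf10, against 1.78% of all genes. All 4 receptor genes lay between -0.28 and 0.09, with 95% intervals that together ran from -0.81 to 0.39. The count was 0 without either pNSC_LF replicate, with an unmoderated test or with only the 2 groups, and 2 without pNSC_L replicate 2.

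In dNSC against pNSC_LF, 7 of the 9 were called, 6 higher and Fgf4 lower, against 38.6% of all genes, with a median of 0.96 against -0.01 over all genes. Of the receptors, Fgfr1, Fgfr2 and Fgfr3 rose in this step, which removed Lif and added EGF and B27 while FGF was 20 ng/ml rather than 10 ng/ml. In dNSC against ESC, 8 of 9 were called, 5 higher and 3 lower, against 40.5%. In dNSC against pNSC_L, 8 were called, 5 higher and 3 lower, against 39.9%. In pNSC_LF against ESC, 6 were called, 2 higher and 4 lower, against 15.3%.

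Between the neural stem cell cultures, dNSC against CNS_NSC, whose media had equal FGF, EGF and heparin, 7 of 9 were called, against 34.0% of all genes. The 4 ligand genes, Fgf13 and Fgfr2 were higher in dNSC and Fgfr3 was lower, with a median of 0.97 against -0.01 over all genes. In CNS_NSC against ESC, 7 were called, Fgfr1 and Fgfr3 higher and Fgf4, Fgf10, Fgf15, Fgf17 and Fgfr4 lower, against 43.8%. The Fgf10 call there, -0.61 ± 0.16, was lost without ESC replicate 1 (adjusted p = 0.053). The primitive spheres against CNS_NSC gave 8 calls for pNSC_L, 5 higher and 3 lower, against 43.6%, and 6 for pNSC_LF, 3 higher and 3 lower, against 41.9%.

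The rest of the FGF family was read for context. Of 14 other secreted ligand genes, 5 rose and none fell in dNSC against pNSC_LF, with a median of 0.12. That is 35.7% of the list, near the 38.6% of all genes called. Fgf18, a ligand of bone and brain, rose by 2.31 ± 0.11 (adjusted p = 1.9e-07), Fgf5, a marker of the primed epiblast, by 2.29 ± 0.14 (adjusted p = 8.5e-07) and Fgf8, the organiser signal of the midbrain-hindbrain border, by 0.76 ± 0.12 (adjusted p = 0.00051). Against CNS_NSC, 4 of the 14 were higher in dNSC and 2 lower (42.9%, against 34.0% of all genes), led by Fgf5 at 3.04 ± 0.14 and Fgf18 at 2.31 ± 0.11. Fgf1 and Fgf2, broad-acting ligands that lack a classical secretion signal, were lower in dNSC, by -1.81 ± 0.13 and -0.49 ± 0.14. From the earlier step, pNSC_L against ESC, Fgf7, a mesenchymal ligand, rose by 0.76 ± 0.14 and Fgf18 fell by 1.10 ± 0.11. These 2 calls were 14.3% of the list, near the 13.4% of all genes called. None of the 14 was called in pNSC_LF against pNSC_L, where only 1.78% of all genes were. Of all 22 FGF genes measured, 8 had their highest group mean in dNSC, 5 in pNSC_L, 5 in CNS_NSC, 2 in pNSC_LF and 2 in ESC. In 11 the group means spanned at least 1 unit. The matching shares over all genes were not computed. Some leads were narrow and under the median gene, as for Fgf21, which averaged 7.34 in dNSC and 7.29 in CNS_NSC.

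**Figure D4:**
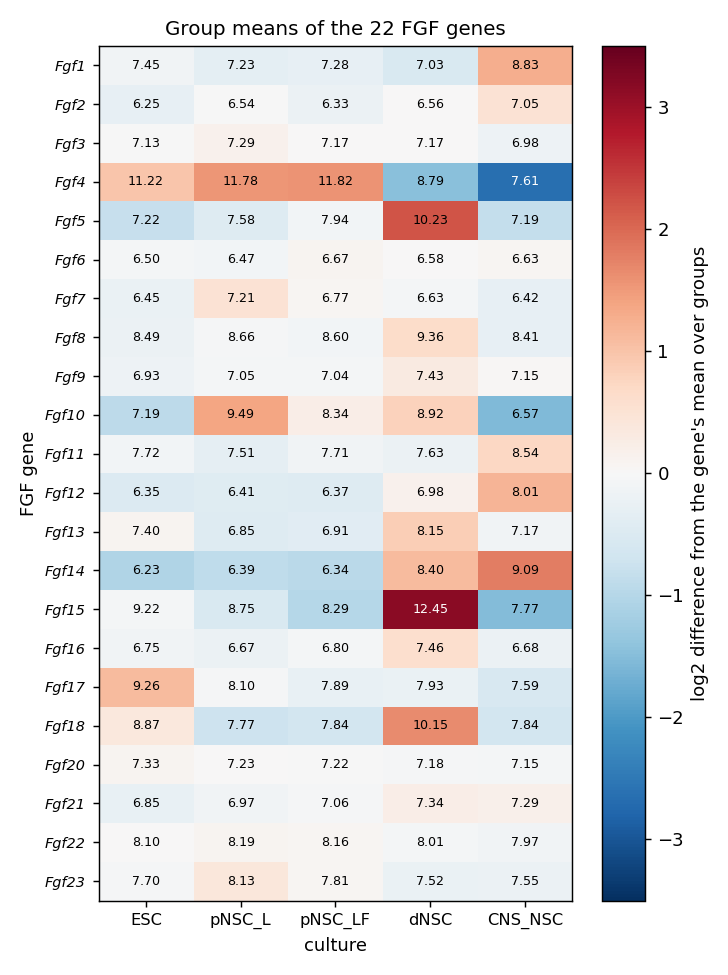
Mean log2 intensity of the 22 FGF genes (rows) in the 5 cultures (columns), printed in each cell; colour is the log2 difference from the gene's mean over the 5 groups. Fgf15, Fgf5 and Fgf18 are reddest in dNSC, Fgf4 is red in the first 3 cultures and blue in CNS_NSC, and Fgf1, Fgf12 and Fgf14 are reddest in CNS_NSC.

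Fgf13 and its 3 intracellular relatives differed between the neural stem cell groups. Fgf11, Fgf12 and Fgf14 were all lower in dNSC than in CNS_NSC, by -0.91 ± 0.23, -1.03 ± 0.13 and -0.69 ± 0.15, while Fgf13 was higher there by 0.97 ± 0.14. Fgf14 rose in dNSC against pNSC_LF by 2.06 ± 0.15 and Fgf12 by 0.60 ± 0.13.

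Of 9 genes for co-receptors and binding proteins of the ligands, 6 rose and 1 fell in dNSC against pNSC_LF, 77.8% of the list against 38.6% of all genes, with a median of 0.65. Flrt2 and Flrt3, membrane proteins that bind FGF receptors, rose by 4.0 ± 0.12 and 2.19 ± 0.16, and the cell adhesion gene Ncam1 rose by 1.20 ± 0.13. Fgfbp1, a carrier that frees FGF from the matrix, fell by 1.65 ± 0.17. Against CNS_NSC, Ncam1 and the decoy receptor gene Fgfrl1 were lower in dNSC, by -1.96 ± 0.13 and -0.79 ± 0.12, and Flrt2 was higher by 2.26 ± 0.12. The klotho genes Kl and Klb, co-receptors for the endocrine FGFs such as Fgf15, had group means of 6.49 to 6.87 in the 5 cultures, near the lower quartile. Klb was higher in dNSC than in CNS_NSC by 0.31 ± 0.10 (adjusted p = 0.042).

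Of 13 genes measured in the receptor adaptor and Ras-MAP kinase list, 6 rose and 2 fell in dNSC against pNSC_LF, with a median of -0.11. The called share was 61.5%, against 38.6% of all genes. Sos2, a Ras activator, rose by 2.07 ± 0.12 and the kinase gene Braf by 0.73 ± 0.10. Gab1, a docking protein of receptor kinases, fell by 1.28 ± 0.16 and Map2k1, the kinase MEK1, by 1.03 ± 0.15. Earlier, in pNSC_L against ESC, Braf fell by 0.84 ± 0.10 and Sos2 by 0.61 ± 0.12, with none higher. These 2 calls were 15.4% of the list, near the 13.4% of all genes called.

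The 15 genes of the FGF-ERK response and feedback list were followed through the same steps. In pNSC_L against ESC, 5 fell and none rose, with Etv4, an ETS factor induced by FGF, at -2.14 ± 0.14, the cyclin gene Ccnd1 at -1.41 ± 0.14 and the feedback inhibitor Spry4 at -1.22 ± 0.14. In pNSC_LF against pNSC_L, Etv4 rose by 0.90 ± 0.14 (adjusted p = 0.016) and was the 1 call among the 15. In dNSC against pNSC_LF, 8 rose and 1 fell: Spry1, a feedback inhibitor, rose by 2.69 ± 0.13, the ERK phosphatase gene Dusp6 by 1.86 ± 0.15 and Dusp4 by 1.78 ± 0.21, while Etv5 fell by 0.82 ± 0.14. Ccnd1, Myc and Spred1, which fell in pNSC_L against ESC, were among the 8, at 1.67 ± 0.14, 0.65 ± 0.18 and 0.65 ± 0.13. The called share of the list was 33.3%, 6.67% and 60% in these 3 steps, against 13.4%, 1.78% and 38.6% of all genes. Against CNS_NSC, 8 were lower in dNSC and 2 higher (66.7%, against 34.0% of all genes), with Myc at -2.07 ± 0.18 and Ccnd1 at -1.67 ± 0.14, and with Il17rd, an FGF receptor antagonist, at 3.26 ± 0.13. These genes also answer to other inputs, EGF among them.

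**Figure D5:**
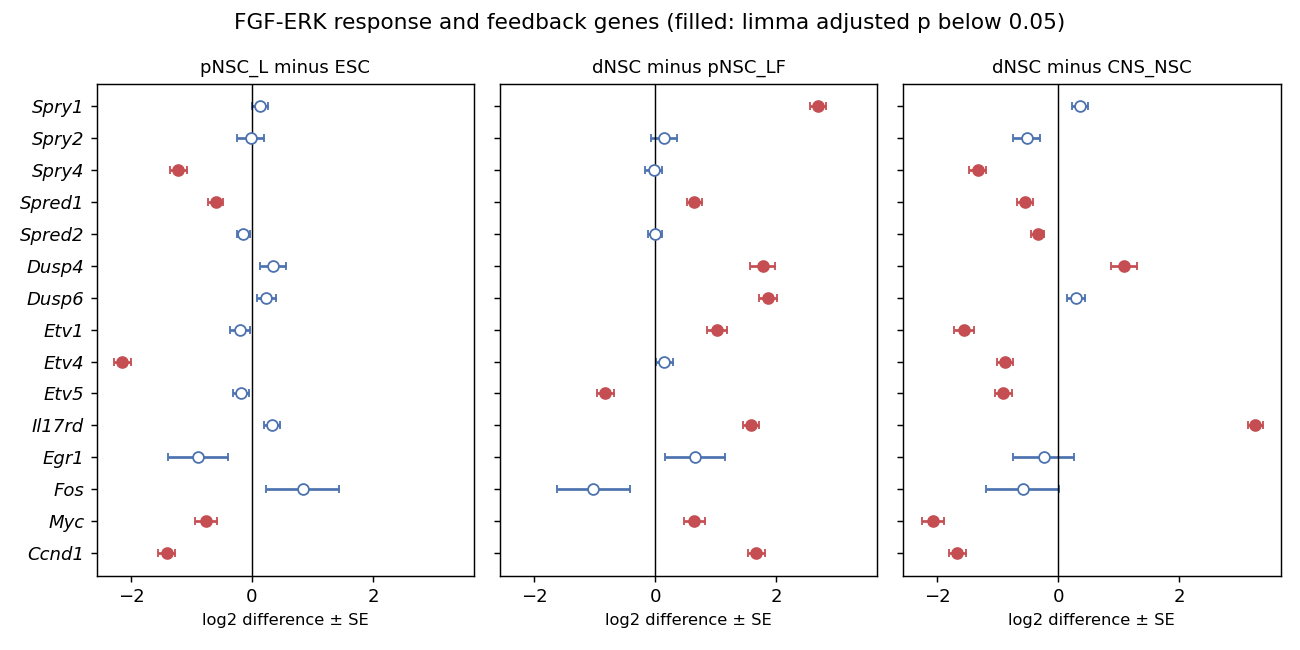
Log2 difference ± SE (horizontal axis) of 15 FGF-ERK response and feedback genes (vertical axis) in 3 comparisons, n = 2 arrays a group; filled red points had limma adjusted p below 0.05 and open blue points did not. The called genes are all lower in pNSC_L minus ESC, 8 of 9 are higher in dNSC minus pNSC_LF, and 8 of 10 are lower in dNSC minus CNS_NSC.

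Heparan sulfate, the sugar chain that holds FGF to its receptor, is built and trimmed by enzymes of which 17 were measured. In dNSC against pNSC_LF, 9 rose and 1 fell, 58.8% of the list against 38.6% of all genes, with a median of 0.53. Sulf1, an enzyme that removes 6-O-sulfate from the chain, rose by 2.34 ± 0.14 and Hs6st2, which adds it, by 2.33 ± 0.16, while its relative Hs6st1 fell by 0.89 ± 0.11. Against CNS_NSC, 5 were higher and 5 lower in dNSC (58.8%, against 34.0% of all genes), with Sulf1 at 4.43 ± 0.14 and Xylt1, which starts the chain on its core protein, at -2.70 ± 0.14. None of the 17 was called in pNSC_LF against pNSC_L, where only 1.78% of all genes were, so few calls could be looked for in a list of this size.

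Genes with the most similar course were sought among 5481 named genes whose group means spanned at least 1 unit, by Pearson correlation over the 10 arrays, which share 5 groups. Fgf4 was most like Ildr1 (0.998), Sgk1 (0.997) and Jade1 (0.996). Fgf15 was most like Sertad4 (0.992), Crabp2 (0.990) and Gar1 (0.988), and Crabp2 averaged 11.88 in dNSC and 7.45 in CNS_NSC. Fgf17 was most like Tdpoz3 (0.989), Pfkl (0.987) and Actn3 (0.982). Fgf10 was most like Pga5 (0.977), Islr2 (0.964) and Mir679 (0.954), and Fgf13 like Sass6 (0.985), H4c14 (0.980) and Zc3hav1l (0.974). Of the receptors, Fgfr1 was most like Zmiz1, Tmem198b and Panx1 (0.991 to 0.992), Fgfr2 like Lgi2 (0.986), Thbs3 (0.972) and Bcorl1 (0.971), and Fgfr3 like Ppp1r3c (0.992), Tmeff2 (0.990) and Slc38a3 (0.989). Fgfr4 was most like Bckdha (0.952), Pepd (0.951) and Zbtb32 (0.949). Among the 9 genes, Fgf4 and Fgfr1 ran most nearly opposite (-0.98), and Fgf13 and Fgf15 most nearly together (0.88).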

How the data were processed

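Total RNA from 10 cultures was read on Affymetrix gene arrays after whole-transcript labelling, as the labels' protocols state. Deposited values are log2 intensities, 35556 probe sets on each array; RMA and Partek appear, with no version, in the submitters' processing notes. The log2 scale was read from the values, and RMA compresses differences of dim probe sets. For the arrays' genome build: not given in the sources used here.

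Gene names came from the platform annotation: 21789 had 1 gene symbol and were used, 1621 had several and 12146 had none here. By gene number, 21698 matched RefSeq, and 0 symbols changed. The highest-mean probe set was kept for each of 19938 genes. Group means of all 10 arrays were fitted with limma 3.58.1 in R 4.3.3 (5 residual and 4.9 prior degrees of freedom), and p-values were adjusted over all genes by the Benjamini-Hochberg method. The fit was tested on simulated data. Tables were made in pandas 2.3.3 (Python 3.11.15) and plots in matplotlib 3.10.9.

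The members, lists and tests were chosen with earlier results of these data known. Genes named were the 9 members, up to 3 called higher and 3 called lower genes of each list in a main comparison (or, with no call, its most different gene), marker genes, and the 3 genes most like each member, without predicted names; only part of these is printed. Kl, Hprt and Xist, and genes next to Fgf4, were added after their values were seen. As alternatives, arrays were normalized in 2 other ways, the dimmer 30% or 50% of genes were dropped, the prior variance was trended or left out, arrays were weighted, a pair of groups was fitted alone, replicate number was a block, all probe sets of a gene were averaged, and each replicate was left out. No 2 arrays held identical values (0 pairs).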

Additional observations from a re-analysis of the deposited data

How the results depend on the processing

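Of 54 results for the 9 genes in 6 main comparisons, 35 were called, and 26 of these calls held under every alternative run. These comparisons each called 1.78% to 43.8% of all genes. The share of calls that held was not computed for genes outside the 9. None of the 90 results over all 10 comparisons changed direction where it was called. The counts of called genes among the 9 moved as follows. In pNSC_L against ESC (5), an unmoderated test gave 3, array weights gave 3, only the 2 groups gave 2, and 2 to 6 were called with each replicate left out. In pNSC_LF against pNSC_L (1), it was 0 with an unmoderated test, 0 with only the 2 groups, and 0 to 2 with each replicate left out. In pNSC_LF against ESC (6), the count was 3 to 4 with each replicate left out. Over all genes, pNSC_L against ESC gave 2662 calls, but 1587 with an unmoderated test, 1480 with only the 2 groups, and 1102 and 1205 without ESC replicate 1 and 2. For pNSC_LF against pNSC_L the 355 calls became 89, 208 and 99 with an unmoderated test, array weights and only the 2 groups. They became 826 without pNSC_L replicate 2, and 48 and 70 without pNSC_LF replicate 1 and 2. For pNSC_LF against ESC the 3043 calls became 5272 with array weights and 4649 with only the 2 groups. They became 1492 and 1415 without ESC replicate 1 and 2, and 1241 and 1363 without pNSC_LF replicate 1 and 2. The cause of these shifts was not tested. Where 1 replicate was left, it was assumed to vary like the other groups. With the replicate number as a block, Fgfr2 in pNSC_L against ESC (-0.73) was called at adjusted p = 0.024; the labels give no shared origin for equal numbers, and same-numbered deviations correlated at -0.11 to 0.37 between groups. Signal near background limits Fgf13, Fgf17 and Fgfr4 most, since their means in most groups lay under the median gene. It also touches Fgf10, which read 6.56 and 6.58 in CNS_NSC, the lowest of the 9 genes, and averaged 7.19 in ESC. The fold sizes of Fgf10 against these 2 groups are therefore uncertain. The same holds for other folds against a group mean under the median gene. Among these means are Fgf15 and Fgf4 in CNS_NSC (7.77 and 7.61) and Fgfr2 in pNSC_LF (7.29).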

Other observations

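Fgf4 and Fgf15 are next to each other on chromosome 7 in the RefSeq gene order (Fadd, Ano1, Fgf3, Fgf4, Fgf15, LTO1, Ccnd1, Tpcn2), and they moved in opposite directions. In dNSC against pNSC_LF, Fgf4 fell by 3.02 ± 0.11 and Fgf15 rose by 4.16 ± 0.12, while Fgf3, the gene before Fgf4, averaged 7.17 in both groups. LTO1, the gene after Fgf15, averaged 8.09 in dNSC and 7.84 in pNSC_LF (0.25 ± 0.13, adjusted p = 0.17). The chloride channel gene Ano1, next to Fgf3, rose by 3.0 ± 0.11 (adjusted p = 3.8e-08), with means of 10.09 in dNSC and 7.08 in pNSC_LF, and it was also higher in dNSC than in CNS_NSC, by 3.05 ± 0.11. Ccnd1 rose by 1.67 ± 0.14 in the same step but was lower in dNSC than in CNS_NSC, by -1.67 ± 0.14. These neighbours were chosen after their values were seen.

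Markers of primitive endoderm and of mesoderm were read in dNSC, the group in which Fgf15, Fgf5 and Fgf18 were highest. Of 7 primitive endoderm markers 6 were higher in dNSC than in CNS_NSC and none lower, 85.7% of the list against 34.0% of all genes called, with Sox17 at 1.93 ± 0.12, Foxa2 at 1.70 ± 0.11 and Gata6 at 1.65 ± 0.11. Of 4 mesoderm markers measured 2 were higher and none lower, 50% of the list against 34.0% of all genes. Their mean level was 7.97 and 8.0 in dNSC and 7.22 and 7.26 in CNS_NSC. The part of such cells in the FGF values was not tested.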
